A study of Mus musculus with 6 samples.

Results

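Nucleotide and one-carbon metabolism was followed through a list of 35 genes of the purine, pyrimidine, folate and methionine branches, among 25439 genes and genomic intervals tested. The members were every probe whose transcript accession, looked up in a RefSeq gene table, belonged to one of the 35 genes, which gave 48 probes, 1 to 3 for each gene. All 48 were well above background on all 6 arrays, so no member was lost to the filter on dim probes. The RNA came from J1 mouse embryonic stem cells, a 129S4/SvJae line from the inner cell mass that had been adapted to growth on gelatin. One group of 3 samples received 1 µM SC1 (also called pluripotin, a small molecule reported to inhibit ERK1 and RasGAP) for 6 h, and the other group of 3 received DMSO, its solvent, for the same time. Both groups grew with 1000 U/ml LIF in a serum replacement medium. The comparison asked how the RNAs of these enzymes stood in SC1 cells relative to DMSO cells. The labels leave unsaid whether the 3 samples of a group were grown apart, and the p-values therefore reflect only how these samples scattered, which could be technical. The number of arrays limits the precision.

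Cells make purine and pyrimidine nucleotides either anew, from amino acids, one-carbon units and phosphoribosyl pyrophosphate (PRPP), or by salvage of free bases and nucleosides. Folate carries the one-carbon units, which are released mainly from serine and glycine in mitochondria and cytosol and spent on purine rings, on thymidylate and on the methionine cycle, the source of S-adenosylmethionine. Mouse embryonic stem cells are known for one further supply line: threonine dehydrogenase, the product of Tdh, breaks down threonine to feed glycine and one-carbon units, and these cells depend on threonine in the medium. In other mammalian cells several of these genes are known targets of MYC, and those for mitochondrial folate enzymes are known targets of the stress-induced factor ATF4.

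All levels are log2 processed signals relative to the 75th percentile of the same array, which ran from 443.3 to 493.3 in the SC1 group and from 532.2 to 539 in the DMSO group. All 10 embryonic stem cell markers, among them Pou5f1, Sox2 and Nanog, were well above background on every array, and 4 of them were called lower and 2 higher. Over all genes tested 20.2% were called lower and 18.1% higher, the shares to set beside each marker count here. Utf1 was 5.14-fold lower with SC1, with log2 fold changes of -0.48 for Lin28a, -0.28 for Sox2 and -0.25 for Zfp42, while Fgf4 and Sall4 were the 2 that rose. Of 10 fibroblast markers 7 passed the filter (5 higher, 1 lower), with a summed signal of 2.23 to 2.27 times the 75th percentile on the SC1 arrays and 2.41 to 2.57 times on the DMSO arrays, and Lum, Postn and Twist2 did not pass. The largest part of the DMSO sum came from Thy1, the 1 that fell. Its log2 levels were -0.64 to -0.45 on the SC1 arrays and 0.45 to 0.56 on the DMSO arrays. The fibroblast list had a median log2 fold change of 0.69. Of 10 primitive endoderm markers 9 passed the filter (4 higher, 0 lower), with a sum of 21.3 to 21.6 on the SC1 arrays and 13.0 to 14.3 on the DMSO arrays, and Afp did not pass. Most of that sum came from Lama1, at log2 levels of 4.33 to 4.36 on the SC1 arrays and 3.58 to 3.72 on the DMSO arrays, and the list had a median log2 fold change of -0.0091. Of 10 trophoblast markers 7 passed (4 higher, 2 lower), and Elf5, Hand1 and Tpbpa did not pass. Their sum was 36.9 to 39.2 on the SC1 arrays and 16.6 to 17.1 on the DMSO arrays. Cdx2, 1 of the 2 counted as lower, was not well above background on any SC1 array. It passed the filter through the DMSO arrays alone, so it had to differ and supports nothing further. Most of the trophoblast sum came from Tfap2c, at 4.82 to 4.92 on the SC1 arrays and 3.43 to 3.53 on the DMSO arrays. The part of these markers in the results was not tested. Fewer cells of a type and less RNA per cell cannot be told apart in such samples.

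After 6 h of SC1, 24 of the 35 genes passed the test, against 38.3% of all genes tested, and 19 of these 24 were lower, most by modest amounts. Tdh fell 2.39-fold, and was the 1 member that changed at least 2-fold. The pyrimidine genes Dhodh and Umps fell 1.36-fold and 1.33-fold, and 8 of 11 genes of new purine synthesis fell by at most 1.28-fold. Against that direction, Shmt2, Mthfd2 and Aldh1l2, genes of the mitochondrial folate pathway, rose 1.14-fold, 1.33-fold and 1.44-fold, as did Amt of the glycine cleavage system and Mtr, methionine synthase.

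Of the 35 genes 19 fell, 5 rose and 11 did not pass with limma at a Benjamini-Hochberg adjusted p under 0.05. Over all 25439 genes tested 20.2% were called lower and 18.1% higher with SC1, and 4.16% were called and changed at least 2-fold in either direction. The median log2 fold change, SC1 minus DMSO, was -0.19 over the 35 genes and -0.0052 over all genes. For 22 members all 3 SC1 arrays lay below all 3 DMSO arrays, an order found in 27.6% of all genes, and for 5 they lay above, found in 24.5% of all genes. Beside the 19 called genes, the 22 held Ctps2, Ahcy and Mthfd1l, which did not pass. Relative to each gene's DMSO mean, the member median was -0.19, -0.18 and -0.12 on the 3 SC1 arrays and -0.0055, -0.0035 and 0.012 on the 3 DMSO arrays. The spread was small throughout: the SD over 3 arrays ran from 0.0096 to 0.10 (median 0.054) in the SC1 group and from 0.0030 to 0.16 (median 0.050) in the DMSO group. Signal level went along with direction in the whole data set. With all genes ranked by mean level and cut into 4 equal classes, the brightest held 24 of the members. In that class 25.8% of all genes were called lower and 11.2% higher, with a median of -0.045, while 14 of the 24 members there fell and 2 rose, with a median of -0.18.

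The direction of the 24 called members was the same in all 21 alternative settings, but the number called was not. That direction was fixed in advance where arrays were left out, weighted or blocked, since the groups did not overlap for any of the 24. It was equally fixed where only the filter or the variance model changed, which left the differences as they were. The other scalings, the background correction, the deposited values and the probe rules could have turned it. With quantile normalization, under which the median of all genes lay between -0.0069 and 0.018 in each class, 12 members fell and 5 rose. Over all genes 18.3% were then called lower and 5055 of 25439 higher, and the member median was -0.086. Hprt, Gart, Paics, Impdh2, Gldc, Mat2a and Nme1 were the 7 no longer called lower. With spike-in scaling 4 fell (Dhodh, Umps, Dut and Tdh) and 1 rose (Aldh1l2), against 10.9% of all genes called lower and 2288 of 25439 higher. In that setting decreases were about as frequent among the 35 members as among all genes, and increases were less frequent. SC1 replicates 2 and 3 lay in a column of the slide that held no DMSO array, so for them slide column and treatment cannot be told apart. With the slide column as a block 7 members fell (Umps, Dhodh, Dut, Pfas, Aprt, Shmt1 and Tdh) and 3 rose (Shmt2, Mthfd2 and Aldh1l2), against 11.2% of all genes called lower and 2690 of 25439 higher. Since the other column held no DMSO array, the block fit estimates the difference from SC1 replicate 1 against the 3 DMSO arrays alone. SC1 replicates 2 and 3 add only to its estimate of spread. The same contrast fitted within the first column alone gave the same differences, with a member median of -0.19. That fit assumes that the lone SC1 array varies like the DMSO arrays. Dhodh, Dut, Tdh and Aldh1l2 were called in all 21 alternatives.

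**Figure D1:**
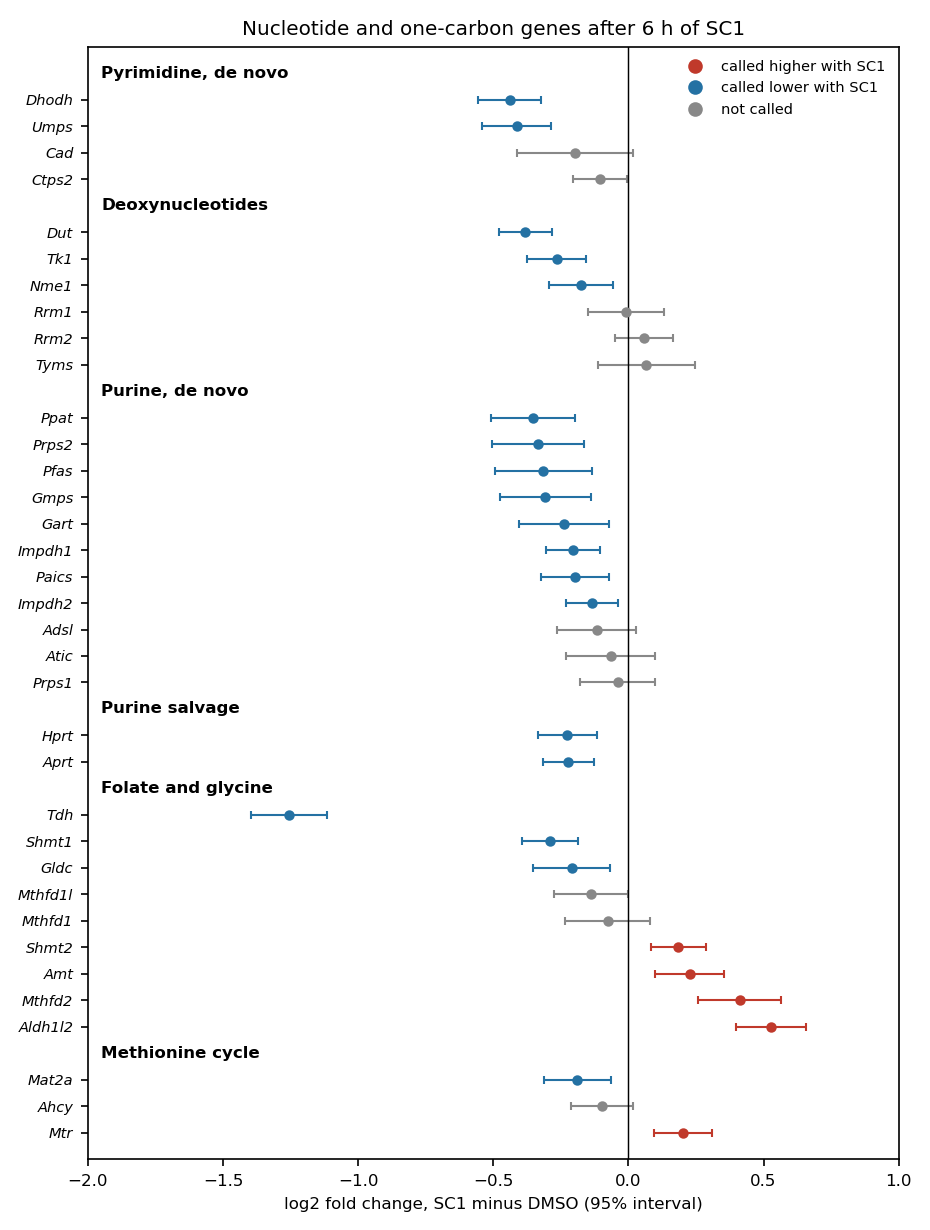
Log2 fold change (SC1 minus DMSO) of the 35 genes by branch, with points for the fitted value and bars for its 95% interval, coloured by call at an adjusted p under 0.05. Tdh stands at -1.26, the other 18 genes that fell lie between -0.44 and -0.13, and the 5 that rose lie between 0.18 and 0.53.

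New pyrimidine synthesis runs from CAD, the enzyme of its first steps, through DHODH, the mitochondrial step coupled to the respiratory chain, to UMPS, which makes UMP, and CTP synthase. All 4 members had a log2 fold change below 0, as had 12963 of all 25439 genes, and 2 were called. Dhodh stood at 2.74, 2.79 and 2.84 on the SC1 arrays, against 3.18, 3.27 and 3.24 on the DMSO arrays. Its SC1 values were all lower, without overlap, and differed by -0.44 on the log2 scale (SE 0.0481, adjusted p = 0.00108). For Umps the levels were 5.43, 5.39 and 5.52 on the SC1 arrays, against 5.81, 5.87 and 5.91 on the DMSO arrays, again without overlap, and the log2 fold change was -0.41 (SE 0.0523, adjusted p = 0.00187). A dimmer Umps probe gave -0.072, which did not pass (adjusted p = 0.293 with every probe tested), so the size of the Umps decrease rests on 1 of its 2 probes. Cad, at -0.20 (95% interval -0.41 to 0.019), did not pass over all genes, but passed without DMSO replicate 1 (adjusted p = 0.0243), the DMSO array on which it was lowest. Ctps2 had -0.11 (95% interval -0.20 to -0.0066) on its brighter probe and did not pass, whereas its dimmer probe gave 0.26 (adjusted p = 0.0245 with every probe tested), so the direction of Ctps2 is not settled.

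Deoxynucleotides for DNA come from ribonucleotide reductase (Rrm1 and Rrm2), thymidylate synthase (Tyms), which consumes a folate one-carbon unit, thymidine kinase (Tk1) and dUTPase (Dut), which keeps uracil out of DNA. Tk1, Dut and Nme1 fell, while Tyms, Rrm1 and Rrm2 did not pass. Dut had 4.07, 4.09 and 4.10 on the SC1 arrays, against 4.50, 4.43 and 4.48 on the DMSO arrays. The SC1 arrays spanned a narrow range below all DMSO arrays (log2 fold change -0.38, SE 0.0399, adjusted p = 0.00092, a 1.3-fold decrease). Tk1 measured 4.44, 4.37 and 4.44 on the SC1 arrays, against 4.71, 4.70 and 4.64 on the DMSO arrays, also without overlap (log2 fold change -0.27, SE 0.0441, adjusted p = 0.00529). Nme1, a nucleoside diphosphate kinase gene with a close paralogue in Nme2 that the probes may share, gave 5.40, 5.46 and 5.54 on the SC1 arrays, against 5.66, 5.63 and 5.63 on the DMSO arrays. Its difference was -0.18 (SE 0.0485, adjusted p = 0.0333), and -0.26 on its other probe. The Nme1 call ended without any 1 array except SC1 replicate 3 (adjusted p 0.0786 to 0.0916). Both subunits of ribonucleotide reductase overlapped between groups, with -0.0076 for Rrm1 (95% interval -0.15 to 0.13) and 0.057 for Rrm2 (95% interval -0.049 to 0.16), and Tyms had 0.066 (95% interval -0.11 to 0.25). For Rrm2 the interval thus excludes a change of the size seen for Dut, while the difference of Rrm1 lay on either side of 0 depending on the scaling.

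Replication genes, listed beside this branch because they share its S-phase timing, gave 7 lower, 0 higher and 12 not passing among 19 that passed the filter, with a median log2 fold change of -0.088, where 20.2% of all genes were called lower and 18.1% higher. Under quantile normalization 2 fell (18.3% of all genes) and 1 rose (5055 of 25439 genes), and with spike-in scaling 1 fell (10.9% of all genes). With the slide column as a block 2 fell (11.2% of all genes). Leaving out any 1 of the 6 arrays left 2 to 4 lower, against 15.7% to 17.3% of all genes. Ccne1, the gene of cyclin E1, was lowest, at -0.79 (SE 0.0388, adjusted p = 6.38e-05), and Gins2, part of the replicative helicase complex, came next at -0.26; both were picked with their values known. The part of cell cycle position in the values of Tk1 and Dut was not tested.

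New purine synthesis starts from PRPP, made by PRPP synthetase (Prps1, Prps2). PPAT commits it to the pathway, GART, PFAS, PAICS, ADSL and ATIC build inosine monophosphate, and IMPDH and GMPS turn that into GMP. All 11 members had a log2 fold change below 0, as had 12963 of all 25439 genes. With quantile normalization Atic (0.0067) and Prps1 (0.051) lay above 0. Ppat, Prps2, Pfas, Gmps, Gart, Impdh1, Paics and Impdh2 fell, and Adsl, Atic and Prps1 did not pass. Ppat stood at 2.31, 2.24 and 2.40 on the SC1 arrays, against 2.73, 2.59 and 2.70 on the DMSO arrays. The groups did not overlap (log2 fold change -0.35, SE 0.063, adjusted p = 0.00692), and the second probe of Ppat gave -0.45. Impdh1 had 2.10, 2.08 and 2.15 on the SC1 arrays, against 2.33, 2.28 and 2.32 on the DMSO arrays, again apart, with a difference of -0.21 (SE 0.041, adjusted p = 0.0106). For Prps2 the levels were -0.074, -0.23 and -0.064 on the SC1 arrays, against 0.23, 0.29 and 0.12 on the DMSO arrays. All SC1 values lay below those with DMSO (difference -0.34, SE 0.0695, adjusted p = 0.012), while Prps1, which encodes the other widely expressed PRPP synthetase, had -0.039 (95% interval -0.18 to 0.1). Gmps measured 1.55, 1.35 and 1.46 on the SC1 arrays, against 1.83, 1.68 and 1.77 on the DMSO arrays. Its difference was -0.31 (SE 0.0691, adjusted p = 0.0164) on the brightest of 3 probes and -0.056 and -0.25 on the others. The remaining called genes of the branch ran from -0.31 for Pfas to -0.13 for Impdh2, with Gart at -0.24 and Paics at -0.20, and none of these 4 overlapped between groups. Adsl had -0.12 and Atic -0.066, with overlapping SC1 and DMSO values for both. Calls that ended when 1 array was left out were those of Impdh2 (any array, adjusted p 0.0764 to 0.104), Gart (any except SC1 replicate 2, 0.0548 to 0.101), Paics (any except SC1 replicate 3, 0.0548 to 0.0823), Pfas (DMSO replicate 2 or 3, 0.0591 to 0.06) and Gmps (DMSO replicate 1 or 3, 0.0521 to 0.0526).

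Purine bases are recovered by HPRT, for hypoxanthine and guanine, and APRT, for adenine. Both genes fell to a like extent. Hprt had 5.44, 5.41 and 5.47 on the SC1 arrays, against 5.63, 5.64 and 5.72 on the DMSO arrays, without overlap (log2 fold change -0.23, SE 0.0448, adjusted p = 0.0102). Aprt had 5.75, 5.78 and 5.81 on the SC1 arrays, against 6.01, 6.00 and 5.99 on the DMSO arrays, with a still narrower spread in the DMSO group (log2 fold change -0.22, SE 0.0386, adjusted p = 0.00633). Hprt, often used as a stable control gene, was thus 1.17-fold lower relative to the 75th percentile, and -0.12 on the log2 scale with quantile normalization, where it no longer passed (adjusted p = 0.0699).

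Promoter sequences were read for 31 of the 35 genes, from RefSeq windows on GRCm38.p6 that reach from 250 bases before each annotated start to 50 after it, and Dhodh, Pfas, Aldh1l2 and Tdh were not among them. The MYC-type E-box CACGTG, which reads the same on both strands, occurred in 6 of 35 windows (5 of the 31 genes) and in 7.15% of all 32851 windows. These 5 genes are shown because 3 of them (Paics, Impdh2, Nme1) fell and 2 (Atic, Tyms) did not pass. Each stretch runs 5′ to 3′ on the gene's strand with the E-box in capitals. For Nme1 1 of its 2 windows is given.
Paics, chr5:76951072-76951131, plus strand: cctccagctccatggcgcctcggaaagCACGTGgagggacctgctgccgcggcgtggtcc
Impdh2, chr9:108560299-108560358, plus strand: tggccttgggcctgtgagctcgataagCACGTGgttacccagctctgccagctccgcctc
Nme1, chr11:93968258-93968317, minus strand: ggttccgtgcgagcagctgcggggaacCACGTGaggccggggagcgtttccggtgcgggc
Atic, chr1:71557122-71557181, plus strand: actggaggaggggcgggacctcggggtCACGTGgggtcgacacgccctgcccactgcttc
Tyms, chr5:30073654-30073713, minus strand: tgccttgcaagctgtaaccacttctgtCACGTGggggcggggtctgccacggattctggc
The first base of the E-box lay 203 bases upstream of the annotated start in Paics, 110 in Impdh2, 18 in Nme1, 7 in Atic and 61 in Tyms. E2F-type words (TTTCCCGC, TTTGGCGC, TTTCGCGC or TTTGCCGC on either strand) were found in the windows of Ppat and Prps2, 2 of 35, against 2.26% of all windows. The Ppat window, from the gene that starts next to Paics in head-to-head orientation and fell like it, held the word at 2 places, of which the nearer to the start is shown with the word in capitals.
Ppat, chr5:76951702-76951763, minus strand: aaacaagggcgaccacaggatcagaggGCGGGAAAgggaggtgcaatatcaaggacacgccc
The ATF4-type element TGATGNAA, searched on both strands, was present in the window of Prps1 and in 3.97% of all windows. None of these letters were found in the windows of Shmt2 or Mthfd2. A match of letters is a description of the sequence and shows no binding.

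The folate and glycine genes moved in both directions: Tdh, Shmt1 and Gldc fell, Shmt2, Mthfd2, Aldh1l2 and Amt rose, and Mthfd1 and Mthfd1l did not pass. Tdh stood at 5.51, 5.45 and 5.35 on the SC1 arrays, against 6.75, 6.65 and 6.68 on the DMSO arrays. The gap between the groups was many times the spread within either (log2 fold change -1.26, SE 0.0577, adjusted p = 5.08e-05), and the second Tdh probe gave -1.33. The partner of TDH in threonine breakdown, glycine C-acetyltransferase, is encoded by Gcat. That gene, picked with its value known, stood at -0.071 (SE 0.0469, adjusted p = 0.285) for SC1 minus DMSO.

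Serine hydroxymethyltransferase exists in a cytosolic form (Shmt1) and a mitochondrial form (Shmt2), each of which turns serine into glycine and a folate one-carbon unit. They moved in opposite directions. Shmt1 had 1.35, 1.39 and 1.34 on the SC1 arrays, against 1.66, 1.61 and 1.70 on the DMSO arrays. The difference was -0.29 (SE 0.0425, adjusted p = 0.00326) and -0.21 on the second probe. Shmt2 had 4.20, 4.12 and 4.13 on the SC1 arrays, against 3.97, 3.96 and 3.97 on the DMSO arrays. Here the SC1 arrays were the higher ones, without overlap (difference 0.18, SE 0.0415, adjusted p = 0.0163). Mthfd2, a mitochondrial dehydrogenase and cyclohydrolase that oxidises the folate product of SHMT2, measured 2.40, 2.36 and 2.47 on the SC1 arrays, against 1.89, 2.05 and 2.06 on the DMSO arrays, an increase of 0.41 (SE 0.0627, adjusted p = 0.00383). Aldh1l2, which encodes the mitochondrial enzyme that releases carbon dioxide from formyl-folate and makes NADPH, had -1.94, -2.10 and -2.06 on the SC1 arrays, against -2.57, -2.55 and -2.54 on the DMSO arrays. It rose without overlap, by 0.53 (SE 0.0529, adjusted p = 0.000787). By contrast Mthfd1l, whose mitochondrial product releases formate, had -0.14 (95% interval -0.28 to -0.0027) and -0.14 on its second probe, and the cytosolic trifunctional gene Mthfd1 had -0.077 (95% interval -0.24 to 0.082). Neither passed. Slc25a32, which encodes the mitochondrial folate carrier and was also picked with its value known, fell by 0.52 on the log2 scale (adjusted p = 0.000243). The Shmt2 call ended without SC1 replicate 1 or DMSO replicate 2 or 3 (adjusted p 0.0509 to 0.0533).

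Glycine cleavage, the mitochondrial system that splits glycine and charges folate, has its P protein encoded by Gldc and its T protein by Amt. Gldc had 4.26, 4.27 and 4.29 on the SC1 arrays, against 4.46, 4.59 and 4.40 on the DMSO arrays, a decrease of 0.21 on the log2 scale (SE 0.0577, adjusted p = 0.0323). Amt had -0.90, -0.79 and -0.85 on the SC1 arrays, against -1.14, -1.02 and -1.06 on the DMSO arrays, an increase of 0.23 (SE 0.0526, adjusted p = 0.0182). Neither gene overlapped between groups, and both calls depended on single arrays. The Gldc call ended without any array except DMSO replicate 3 (adjusted p 0.0653 to 0.0885), and the Amt call without SC1 replicate 2 or 3 or DMSO replicate 1 or 3 (0.0513 to 0.0522).

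**Figure D2:**
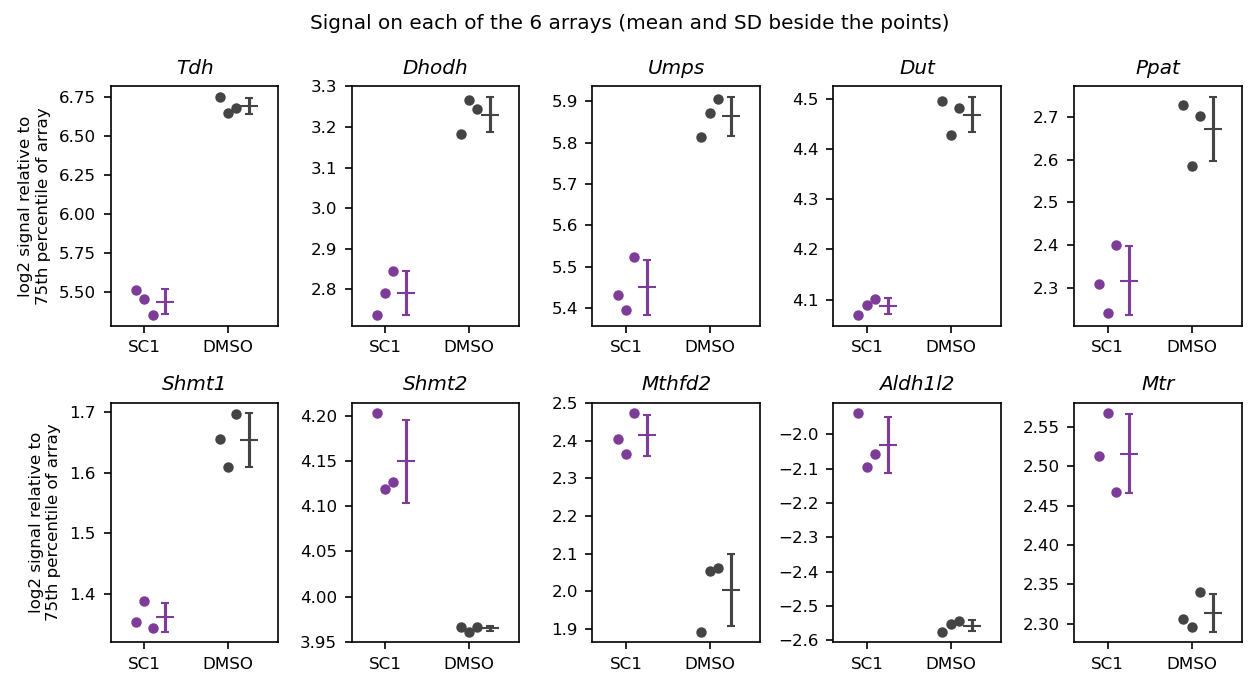
Log2 signal relative to the 75th percentile of each array for 10 genes, with 1 point per array and the mean with SD (n = 3 per group) beside the points, on an axis of its own for each gene. No gene shown overlaps between SC1 and DMSO: Tdh, Dhodh, Umps, Dut, Ppat and Shmt1 are lower with SC1, and Shmt2, Mthfd2, Aldh1l2 and Mtr are higher.

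In the methionine cycle MAT2A makes S-adenosylmethionine, AHCY removes the S-adenosylhomocysteine left by methylation, and MTR remakes methionine from homocysteine with a folate methyl group. Mat2a fell, Mtr rose and Ahcy did not pass. Mat2a stood at 5.82, 5.80 and 5.91 on the SC1 arrays, against 6.04, 6.07 and 5.98 on the DMSO arrays. The difference was -0.19 (SE 0.0508, adjusted p = 0.03) on the brighter probe and -0.42 on the other, more than 2 times as large on the log2 scale. Mtr had 2.51, 2.57 and 2.47 on the SC1 arrays, against 2.31, 2.30 and 2.34 on the DMSO arrays. It was higher on every SC1 array (log2 fold change 0.20, SE 0.044, adjusted p = 0.0144), with 0.21 on its second probe. Ahcy had -0.098 (95% interval -0.21 to 0.018) and did not pass, although its groups did not overlap. Without DMSO replicate 2 the adjusted p of Mtr was 0.0515, and the Mat2a call ended without SC1 replicate 1 or 2 or DMSO replicate 1 or 2 (0.0804 to 0.0932).

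Further genes of the same pathways come from a list of neighbouring steps, transporters and regulators. Of 87 on the array 82 passed the filter, of which 29 fell, 17 rose and 36 did not pass, with a median log2 fold change of -0.10, against 20.2% lower and 18.1% higher over all genes. Nt5e, the cell surface nucleotidase that makes adenosine from AMP, fell 8.67-fold, or -3.12 (SE 0.0547, adjusted p = 4.01e-06) on the log2 scale. Normexp background correction gave a smaller decrease for it, -2.02 with 75th percentile scaling and -2.07 with quantile normalization. Slc29a1, an equilibrative nucleoside transporter gene, had -1.16 (SE 0.058, adjusted p = 6.72e-05). Pipox, which encodes a peroxisomal oxidase of sarcosine and pipecolate, had -0.87 (SE 0.0439, adjusted p = 6.77e-05), and Ampd2, an AMP deaminase gene, had -0.61 (SE 0.0422, adjusted p = 0.000193). These 4 had the smallest p among the genes that fell. Among those that rose, Bhmt, Bhmt2 and Cth act on homocysteine or the cystathionine made from it. Bhmt, the gene of a betaine-dependent route from homocysteine to methionine, had 1.43 (SE 0.0797, adjusted p = 9.44e-05), and 0.81 and 0.71 with the same 2 normexp settings. Its relative Bhmt2 and Dmgdh, both counted among the 17, passed the filter through the SC1 arrays alone, so they had to differ and support nothing further. Bhmt2 averaged -4.38 on the SC1 arrays, and neither gene was well above background on any DMSO array. No fold is given for Bhmt2, since its log2 difference was 0.50 and 0.35 with the 2 normexp settings, against 2.94 as measured. With a filter on all 6 arrays 15 of the further genes rose and 29 fell, where 21% of all genes were called lower and 4539 of 24144 higher. Cth, which makes cysteine from cystathionine, had 0.54 (SE 0.0405, adjusted p = 0.000255). With spike-in scaling 16 of the further genes fell and 9 rose, where 10.9% of all genes were called lower and 2288 of 25439 higher. Once slide column entered the fit as a block 20 fell and 9 rose, where 11.2% of all genes were called lower and 2690 of 25439 higher. The increases numbered 10 or 11 when SC1 replicate 2 or 3 or any 1 DMSO array was left out. In these fits 3716 to 4039 of all 25439 genes were called higher.

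ATF4 target genes were set beside the mitochondrial folate genes. Of 16 on the array 15 passed the filter, of which 8 rose, 1 fell and 6 did not pass, with a median log2 fold change of 0.17, against 18.1% higher and 20.2% lower over all genes. Nupr1, Ddit3, Atf5 and Trib3, picked with their values known, rose 3.08-fold, 2.32-fold, 2.26-fold and 1.88-fold (adjusted p from 2.11e-05 to 0.000158). The 6 that did not pass had smaller log2 fold changes. These were 0.12 for Asns, 0.10 for Ppp1r15a, 0.083 for Slc3a2, 0.047 for Chac1, -0.038 for Vldlr and -0.096 for Sesn2. Stc2 was the 1 that fell, with -0.65 (SE 0.0714, adjusted p = 0.0011). The summed signal of the list was 361.1 to 379.1 times the 75th percentile on the SC1 arrays and 292.3 to 305.4 times on the DMSO arrays. Its part in the increases of Shmt2, Mthfd2 and Aldh1l2 was not tested.

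**Figure D3:**
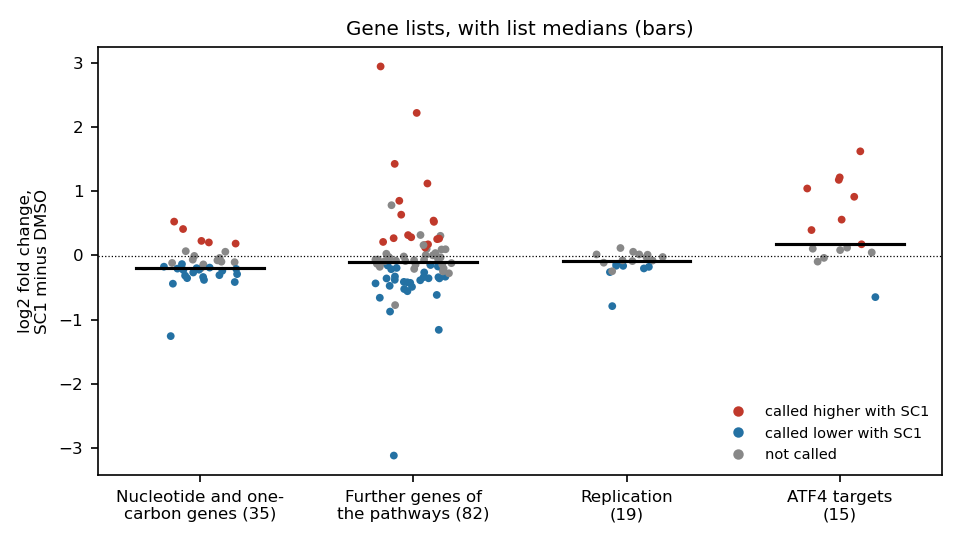
Log2 fold change (SC1 minus DMSO) of each gene that passed the filter in 4 lists, coloured by call, with a bar at each list's median and a dotted line at the median of all genes. The medians are -0.19 for the 35 genes, -0.10 for the further pathway genes, -0.088 for replication and 0.17 for ATF4 targets.

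**Figure D4:**
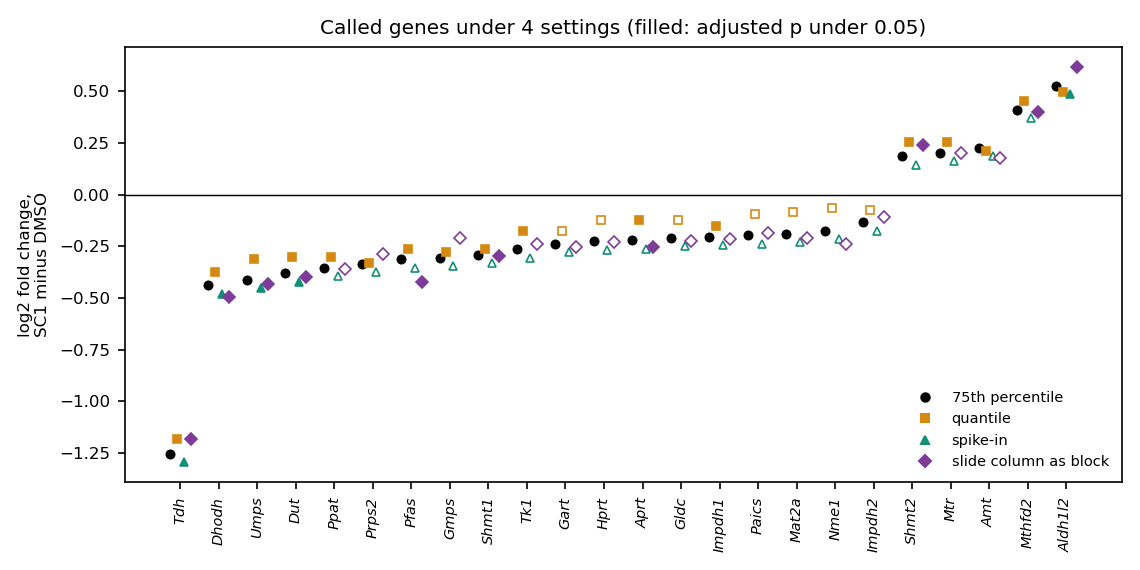
Log2 fold change (SC1 minus DMSO) of the 24 called genes with 75th percentile scaling, quantile normalization, spike-in scaling and the slide column as a block, with filled symbols for an adjusted p under 0.05 and open symbols otherwise. Every symbol stays on its side of 0, which was fixed in advance for the slide column block. That block estimate rests on SC1 replicate 1 against DMSO. The symbols of Tdh, Dhodh, Umps, Dut and Aldh1l2 are filled in all 4 settings.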

How the data were processed

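RNA of 3 SC1 and 3 DMSO samples was measured on 6 single-colour (Cy3) Agilent arrays of 1 slide, per the labels and the file headers. Spots were quantified with Agilent Feature Extraction 10.7, per the submitters' processing notes. The deposited files hold an intensity for each spot: a processed signal corrected for background within the array, and raw median intensities of spot and background. The authors also deposited a table of log2 intensities, normalized by a method not given in the sources used here, in which every array had the median 5.17.

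From these files, spots marked as outliers (137 to 201 per array) and control spots were left out, none being saturated. The log2 processed signal was averaged over spots of a probe, and the 75th percentile of each array was subtracted. A probe was kept if all 3 arrays of 1 group or the other marked it as well above background, which left 35321 of 55681. Accessions were matched to RefSeq symbols (27235 probes), with the brightest probe taken for each gene. The two-sided test of SC1 against DMSO was that of limma 3.58.1 under R 4.3.3, by eBayes after lmFit. Its p-values were adjusted by Benjamini-Hochberg over 25439 genes and called under 0.05. The design of the array uses mm9, and promoter sequences come from a table on GRCm38.p6. Members, lists and tests were chosen with earlier results of these data known, so no list was tested as a set. Values on every array are given for up to 4 called members of a branch with the smallest p, for called members that moved against others of their branch and for changes of at least 2-fold. Of the further pathway genes, the 4 with the smallest p in each direction were chosen, of which 1 that rose is not reported here. Alternatives were other scalings (quantile, median of detected probes, 8 spike-in probes), normexp (offset 50), the deposited table, filters, probe rules, variance models, blocks and leaving out each array. SC1 replicate 1 against DMSO within slide column 1 was added after the data were seen. In simulated data of 25416 genes the test recovered 3 of 50 genes simulated at 1.2-fold, 32 of 50 genes simulated at 1.5-fold, 44 of 50 genes simulated at 2-fold and 49 of 50 at 4-fold, and made 7 false calls. Plots used matplotlib 3.10.9 with Python 3.11.15.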

Additional observations from a re-analysis of the deposited data

How the results depend on the processing

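No called member turned in any of 21 alternatives: 4 of the 24 kept their call in all of them and 20 lost it in at least 1. Only the other scalings, the background correction, the deposited values and the probe rules could have turned a member. The counts below are of the 35 genes, lower and higher with SC1, against 19 and 5. Quantile normalization gave 12 and 5 (member median -0.086), normexp with quantile normalization 15 and 5 (median -0.077), and the deposited log2 values 12 and 5 (median -0.0902). Spike-in scaling gave 4 and 1 (median -0.23) and slide column blocking 7 and 3. SC1 replicate 1 against DMSO within slide column 1 (chosen after seeing the data) is also the contrast behind the block estimates, and gave a median of -0.19. Leaving out single arrays gave 12 to 16 lower, 3 to 4 higher and a median from -0.19 to -0.16, over all genes 3982 to 4407 lower and 3716 to 4039 higher. Without DMSO replicate 2 or 3 the increases numbered 3. Over all genes, 5139 were lower and 4612 higher (47.3% of those called). The counts were 2780 lower and 2288 higher with spike-in scaling, 2855 and 2690 with slide column blocking, 2581 and 2317 within slide column 1, and 5060 lower and 6984 higher with normexp and 75th percentile scaling (58% higher among those called). The cause was not tested. With the replicate number as a block 13 members fell and 3 rose (4074 lower and 3836 higher over all genes). The numbers share only a label: deviations of same-numbered arrays correlated at -0.013, -0.036 and -0.015, and the block is no sign of a weaker effect. Uncalled genes that changed sign were Rrm1 (0.086, 0.082 and 0.084 with quantile normalization, normexp with quantile normalization and the deposited table, 0.044 with slide column blocking and within slide column 1, and -0.042 to 0.034 leaving out single arrays), Atic (0.0067, 0.010 and 0.0045 with the same 3 scalings, 0.016 with slide column blocking and within slide column 1), Prps1 (0.051, 0.063 and 0.050), Gcat (0.025, 0.028 and 0.025), Mthfd1 (0.021 with quantile normalization, 0.023 with the deposited table) and Ctps2 (0.078 with the mean of its probes). With 3 arrays per group, changes of 1.2-fold were mostly missed in simulation. That simulation changed 50 genes at each fold, whereas 38.3% of all genes were called here, and the adjusted p depends on that share. It therefore does not give the power of the test in these data, where Impdh2 at 1.10-fold and Nme1 at 1.13-fold were called. For the genes that did not pass, the interval of the difference, not the missed call, bounds the change.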
